A study of Mus musculus with 36 samples.

Results

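The TNF superfamily genes were taken as every symbol in the count files that starts with Tnfsf or Tnfrsf followed by a digit, together with Tnf, Lta, Ltb, Ltbr, Fas, Fasl, Cd40, Cd27, Cd70 and Ngfr. The rule found 41 of 24421 gene symbols, 16 of them ligands and 25 receptors. RNA of the 41 genes was measured in hepatic stellate cells (HSC), liver sinusoidal endothelial cells (LSEC) and hepatocytes of C57BL/6 mice. Each cell type has 4 libraries from each of 3 conditions, which gives 9 groups and 36 libraries. The condition named WT stands for mice given PBS, and the other conditions for mice sampled 12 h and 36 h after diphtheria toxin, which in this study removes Kupffer cells, the macrophages that live in the sinusoid. No group received toxin while keeping its Kupffer cells, so toxin and Kupffer cell loss cannot be told apart. The labels give no genotype, age or sex, and do not say whether each library is a separate mouse, so p-values measure the spread between these libraries, which may be technical. In bulk RNA, a loss of cells of one type and a lower RNA level per cell cannot be told apart.

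TNF superfamily ligands are trimeric proteins, made on the cell membrane and in part shed from it, and each binds receptors with cysteine-rich repeats outside the cell. Some receptors carry a death domain and can start apoptosis or necroptosis, others recruit TRAF adaptors and switch on the classical or the alternative NF-kB pathway, and still others are decoys that bind ligand without passing a signal on. In the liver, Kupffer cells are a known source of TNF, while FAS and the TNF receptors are known for their part in hepatocyte death and the TWEAK receptor for its rise in injured liver.

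Figures for the members below are counts per 1000000 counts in genes (CPM), on library sizes scaled by the TMM method over all 36 libraries. CPM is not divided by gene length, so levels are compared between groups of libraries and not between genes. A gene counts as called where the adjusted p of edgeR's quasi-likelihood test was under 0.05, with adjustment over all genes tested, and "rose" and "fell" are kept for such genes. Log2 differences are followed by their standard error.

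The promoter windows of the 4 receptors with the smallest adjusted p in stellate cells at 12 h are shown first, because these genes carry the main difference described here. They are RefSeq sequences on GRCm38.p6 that run from 250 bases before to 50 after the annotated start, 5′ to 3′ on the gene's strand, at chr17:43016305-43016604 (Tnfrsf21, plus strand), chr17:23677400-23677699 (Tnfrsf12a, minus strand), chr4:150919905-150920204 (Tnfrsf9, first annotated start, plus strand), chr4:150927749-150928048 (Tnfrsf9, second annotated start, plus strand) and chr19:34290409-34290708 (Fas, plus strand). Capitals mark matches to the NF-kB consensus, searched on both strands, and the second Tnfrsf9 window was added after its match had been seen.
Tnfrsf21: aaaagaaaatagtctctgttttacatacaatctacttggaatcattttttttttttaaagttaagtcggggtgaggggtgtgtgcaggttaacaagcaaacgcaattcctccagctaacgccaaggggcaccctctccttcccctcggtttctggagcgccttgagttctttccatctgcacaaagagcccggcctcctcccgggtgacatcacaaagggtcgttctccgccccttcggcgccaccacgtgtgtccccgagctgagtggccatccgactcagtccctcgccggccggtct
Tnfrsf12a: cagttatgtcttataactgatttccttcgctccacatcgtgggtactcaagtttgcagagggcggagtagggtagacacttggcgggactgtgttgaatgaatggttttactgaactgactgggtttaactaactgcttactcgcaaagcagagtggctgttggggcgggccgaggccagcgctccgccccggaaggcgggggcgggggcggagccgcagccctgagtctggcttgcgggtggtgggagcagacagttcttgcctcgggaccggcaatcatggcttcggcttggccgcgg
Tnfrsf9, first start: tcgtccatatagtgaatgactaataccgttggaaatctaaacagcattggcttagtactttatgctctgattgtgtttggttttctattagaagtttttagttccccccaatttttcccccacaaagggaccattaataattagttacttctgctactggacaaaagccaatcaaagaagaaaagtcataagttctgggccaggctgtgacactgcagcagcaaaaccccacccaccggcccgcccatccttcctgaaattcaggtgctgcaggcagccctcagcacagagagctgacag
Tnfrsf9, second start: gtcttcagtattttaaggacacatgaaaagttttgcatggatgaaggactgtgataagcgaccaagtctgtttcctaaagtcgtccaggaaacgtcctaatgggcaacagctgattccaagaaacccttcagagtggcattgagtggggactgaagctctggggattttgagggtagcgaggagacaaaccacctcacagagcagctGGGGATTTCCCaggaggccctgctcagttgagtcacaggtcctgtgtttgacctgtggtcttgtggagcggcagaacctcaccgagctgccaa
Fas: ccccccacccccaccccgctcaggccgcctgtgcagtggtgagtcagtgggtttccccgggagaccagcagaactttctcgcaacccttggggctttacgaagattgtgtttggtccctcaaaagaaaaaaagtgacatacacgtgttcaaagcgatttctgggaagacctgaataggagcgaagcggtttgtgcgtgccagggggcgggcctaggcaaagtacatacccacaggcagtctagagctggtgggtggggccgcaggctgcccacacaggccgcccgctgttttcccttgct
The second Tnfrsf9 window holds 3 overlapping matches, which begin 43 and 42 bases before the start, and the other 4 windows hold none. Among all annotated starts, 4.51% of 32851 windows hold a match. By gene, 5.14% of 27025 genes and 3 of the 32 members with a window have one, the other members being Ltb and Tnfrsf8. A match is a description of these letters and does not show binding.

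Library totals ran from 25.4 to 31.7 in units of 1000000 counts. Summed markers of each labelled cell type stood at 18000 to 38800 CPM for 9 stellate genes in the HSC libraries, 16500 to 26000 CPM for 10 endothelial genes in the LSEC libraries and 65700 to 118000 CPM for 10 hepatocyte genes in the hepatocyte libraries. In libraries of another cell type the same sums reached at most 289, 363 and 428 CPM. Single genes made up much of them. Gata4 gave 271 CPM of the mean endothelial sum of 343 CPM in WT HSC. Hgf gave 74.1 of 82.3 CPM of the mean stellate sum in WT LSEC, and 77.7 of 139 CPM in LSEC at 36 h. Several libraries stood apart. HSC 12 h replicate 3 and HSC 36 h replicate 4 had the lowest stellate sums of their groups (18000 and 20100 CPM), LSEC 36 h replicate 4 the highest stellate sum among LSEC libraries (289 CPM), and 5 of the 12 hepatocyte libraries had Malat1 above 100 CPM. A sum of 9 Kupffer cell markers, left after Slc40a1 and Clec1b had been dropped with their values seen, was 2.63 to 14.5 CPM in WT, 0.0323 to 2.53 at 12 h and 0.549 to 12.4 at 36 h in HSC. In LSEC it was 11.2 to 24.1, 1.38 to 3.44 and 1.15 to 14.4 CPM, and in hepatocytes 1.76 to 28.8, 0 to 0.55 and 0.409 to 1.89 CPM. Clec4f, Timd4 and Cd163 were at 0 in HSC at 12 h and Timd4 in LSEC at 12 h. Of the dendritic, erythroid and platelet, and cholangiocyte markers tested, Pf4 was the only one called at 12 h against WT, higher in HSC and in LSEC.

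Of the 41 members, 21 reached a mean of 1 CPM in at least 1 group, 14 in HSC, 18 in LSEC and 10 in hepatocytes, where 47.6%, 45.6% and 44.1% of all gene symbols did. The other 20 stayed below that in all 9 groups, with a highest group mean between 0 and 0.922 CPM. They include Fasl, the ligand of FAS, at no more than 0.0824 CPM, Lta, which encodes lymphotoxin alpha, at no more than 0.0261 CPM, and Tnfsf11, which encodes RANKL, at no more than 0.0139 CPM. Ltb, the membrane-bound partner of lymphotoxin alpha, reached 0.769 CPM in LSEC at 36 h, and Tnfrsf8 had no count in any library. In this low set were also Tnfrsf13b, Tnfrsf13c and Tnfrsf17, the BAFF and APRIL receptors of B cells, and Tnfrsf4, Tnfrsf18 and Tnfrsf25, co-stimulatory receptors of T cells.

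**Figure D1:**
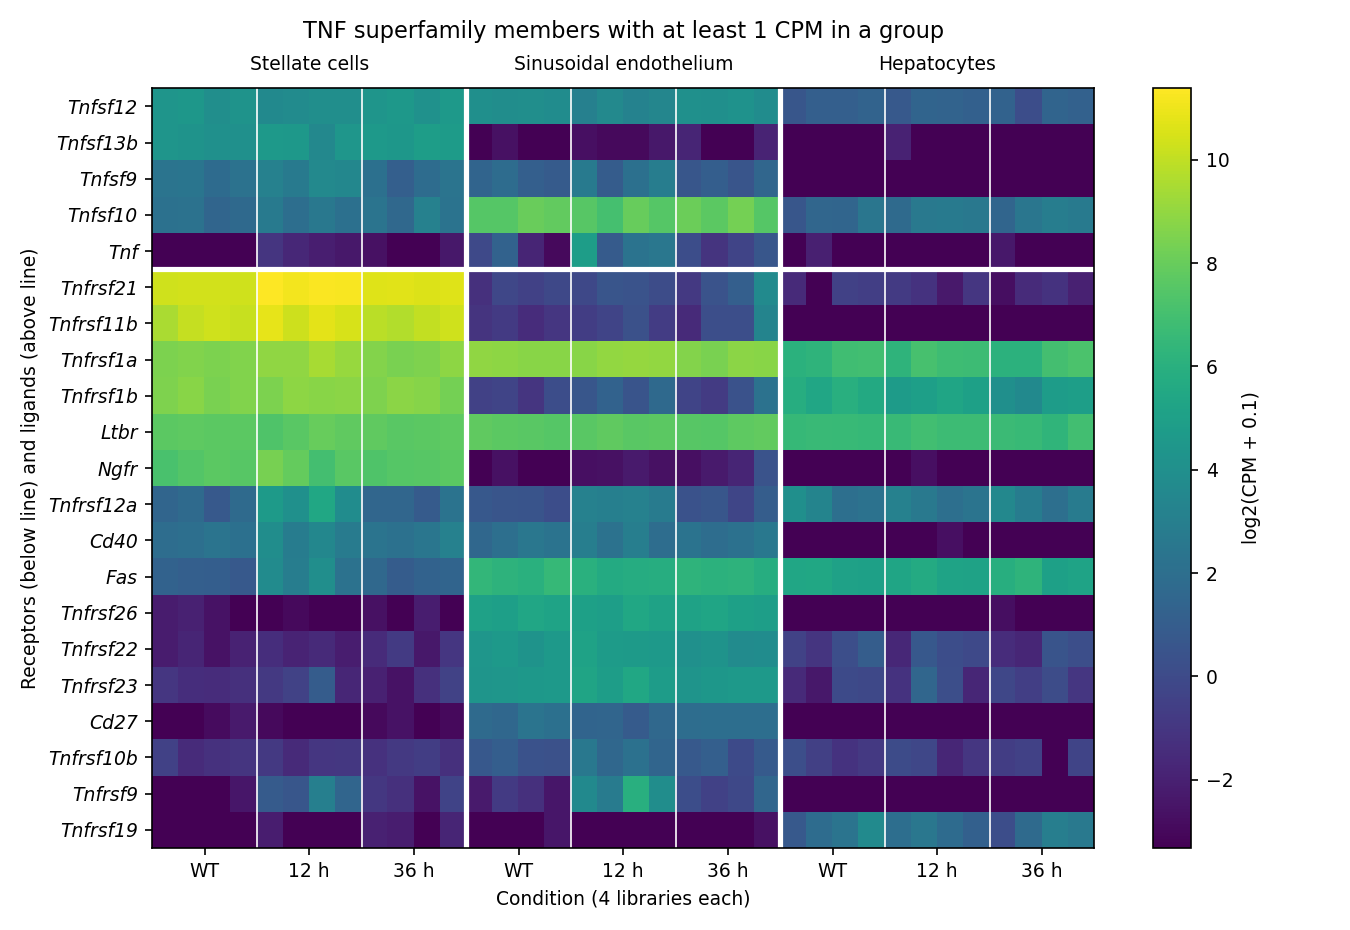
Heat map of log2(CPM + 0.1) for the 21 members that averaged 1 CPM or more in some group (vertical axis, ligands above the line and receptors below it) in each of the 36 libraries (horizontal axis, by cell type and condition). Tnfsf10 and Tnfrsf26 are bright in LSEC and Tnfrsf21, Tnfrsf11b and Ngfr in HSC in all conditions, and Tnfrsf12a and Tnfrsf9 are brighter at 12 h in HSC and LSEC.

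In WT libraries ligand levels differed between the cell types, and no ligand tested was called highest in hepatocytes. Tnfsf10, which encodes TRAIL, a ligand that can trigger apoptosis, was an endothelial RNA at 180, 184, 257 and 232 CPM in LSEC, against 2.64 to 4.6 CPM in HSC and 1.41 to 5.46 CPM in hepatocytes. The LSEC mean was 57.4 times the HSC mean (adjusted p = 2.89e-09) and 69 times the hepatocyte mean (8.36e-10), with no overlap. Tnfsf13b, which encodes the B cell survival factor BAFF, was a stellate RNA at 20.5, 18.7, 16.9 and 16.7 CPM. It had 2403 counts in HSC against 2 in LSEC, a ratio of 1290 with a 95% counting interval of 357 to 10700, and none in hepatocytes, at least 483-fold lower than HSC against a floor of 3 counts over the group. Tnfsf12, which encodes TWEAK, was shared by HSC (15.4 to 22.3 CPM) and LSEC (14.1 to 15.7 CPM) and lower in hepatocytes (1.41 to 2.5 CPM), whose mean the HSC mean exceeded 9.48 times and the LSEC mean 7.38 times. Both LSEC counts of Tnfsf13b came from WT replicate 2. Ltb had 25 counts in WT HSC and 74 in WT LSEC and none in hepatocytes, at least 13.5-fold below LSEC. HSC WT replicate 2 held 0.438 CPM of it against 0.0585 to 0.195 CPM in the other 3, and without it the fitted log2 difference from hepatocytes went from 5.51 to 4.73.

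Tnfsf9, the ligand of the co-stimulatory receptor 4-1BB, was measured at 4.88, 5.07, 3.41 and 4.51 CPM in WT HSC and 2.6, 3.53, 2.08 and 1.79 CPM in WT LSEC, and had no count in WT hepatocytes, at least 119-fold and 66.5-fold lower. The HSC and LSEC ranges overlapped, and the difference (log2 0.84 ± 0.28, adjusted p = 0.0231) was no longer called without any 1 of 5 libraries (HSC WT replicates 1, 2 and 4 and LSEC WT replicates 3 and 4), with adjusted p between 0.0503 and 0.0677. Tnf itself was at 0 in all 4 WT HSC libraries and at 0.848, 2.37, 0.182 and 0.0285 CPM in WT LSEC.

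Among receptors, 4 were stellate RNAs by a wide margin in WT libraries. Tnfrsf21, which encodes the death domain receptor DR6, stood at 1308, 1360, 1341 and 1305 CPM in HSC, and Tnfrsf11b, which encodes osteoprotegerin, the soluble decoy for RANKL and TRAIL, at 728, 1084, 1290 and 1154 CPM. Neither passed 1 CPM in a WT library of LSEC or hepatocytes. The HSC mean of Tnfrsf21 was 2110 times the LSEC mean and 3770 times the hepatocyte mean, and that of Tnfrsf11b 2870 times the LSEC mean and at least 28300-fold above hepatocytes, where it had no count. Ngfr, the low-affinity neurotrophin receptor, gave 142, 172, 202 and 193 CPM in HSC, 23291 counts against 2 in LSEC (ratio 12500, 95% counting interval 3460 to 103000) and at least 4700-fold more than hepatocytes, where it had none. Both of those LSEC counts came from WT replicate 2. Tnfrsf1b, which encodes TNF receptor 2, was graded: 371, 443, 349 and 384 CPM in HSC, 56.8, 41.5, 62.1 and 49.1 CPM in hepatocytes and 0.622, 0.7, 0.391 and 0.998 CPM in LSEC. Each step in that order was called, HSC being 7.39 times hepatocytes (adjusted p = 6.95e-09) and hepatocytes 77.3 times LSEC (2.45e-11), and the groups did not overlap.

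The receptors called highest in WT LSEC included Fas, a small cluster of related receptors and Cd27, with Tnfrsf10b and Tnfrsf11a, given further below. Fas, the death receptor for FASL, was at 85.4, 71.7, 65.6 and 92.7 CPM in LSEC, 41.8, 43.4, 34.7 and 32.6 CPM in hepatocytes and 2.4, 2.1, 2.04 and 1.64 CPM in HSC. All 3 pairs were called without overlap, with LSEC 38.6 times HSC (adjusted p = 2.83e-11) and 2.07 times hepatocytes (1.65e-05). Tnfrsf26, Tnfrsf22 and Tnfrsf23 lie side by side on chromosome 7 of GRCm38.p6 (143607685 to 143627845, 143634808 to 143649675 and 143665807 to 143686436). The products of Tnfrsf22 and Tnfrsf23 are decoy receptors for TRAIL, the ligand whose RNA was also highest in LSEC. WT LSEC held 33.5, 31.4, 41.9 and 37.3 CPM of Tnfrsf26, 21.3, 24.2, 18.4 and 25.1 CPM of Tnfrsf22 and 20.6, 20.8, 22.6 and 23.9 CPM of Tnfrsf23, which is 423, 165 and 69.5 times the HSC means. Hepatocytes had 1.01 CPM of Tnfrsf22 and 0.509 of Tnfrsf23 and no count of Tnfrsf26, at least 958-fold below LSEC. HSC had 11 counts of Tnfrsf26 and overlapped hepatocytes, and that call (adjusted p = 0.0188) was lost with the replicate block (0.0532). Tnfrsf22 and Tnfrsf23 share 719 of their 50-base transcript windows (17.3% and 18% of each), so the split of reads between them is uncertain, while Tnfrsf26 shares none. Cd27, a co-stimulatory receptor of lymphocytes, was at 2.86 to 4.95 CPM in WT LSEC (106 times HSC, and at least 102-fold above hepatocytes, which had no count). HSC had 5 counts of it, and the fitted log2 difference went from -6.52 to -8.01 without HSC WT replicate 4. The whole span of Cd27 is shared with E130112N10Rik, at a mean of 0.2 CPM in WT LSEC, so reads of both can be confused. The LSEC libraries also held lymphocyte markers, 14 of them summing to 6.76 to 12.9 CPM in WT, mostly Lck at a mean of 4.64 CPM, and their part in the Cd27 level was not tested.

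In hepatocytes 2 receptors stood highest in WT libraries. Tnfrsf12a, which encodes the TWEAK receptor FN14, was at 15.7, 9.73, 4.08 and 4.55 CPM there, against 2.69, 3.31, 1.61 and 3.34 CPM in HSC and 1.55, 1.4, 1.3 and 0.998 CPM in LSEC. The WT hepatocyte libraries at 15.7 and 9.73 CPM were those with Malat1 above 100 CPM, whose part was not tested. Hepatocytes did not overlap with HSC or LSEC and were 3.11 times HSC (adjusted p = 0.00159) and 6.48 times LSEC (3.5e-05). The smaller HSC lead over LSEC (log2 1.06 ± 0.41, adjusted p = 0.0393) lost its call without any 1 library of the 8 except HSC WT replicate 3, with adjusted p of 0.0531 to 0.0977. Tnfrsf19, which encodes the orphan receptor TROY, spread from 1.59 through 3.61 and 4.99 to 13.2 CPM in WT hepatocytes, had no count in WT HSC (at least 257-fold lower) and 3 in WT LSEC (ratio 273, 95% counting interval 92.8 to 1330). Without hepatocyte WT replicate 4, the library at 13.2 CPM, the fitted log2 difference against LSEC moved from -7.86 to -7.09, and without LSEC WT replicate 4, which held all 3 counts, to -10.41. The call held in both (adjusted p = 2.58e-05 and 0.000278). Against HSC it moved from -10.44 to -9.7 without the hepatocyte library.

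The receptors Ltbr, Tnfrsf1a and Cd40 were not called between WT HSC and LSEC. Ltbr, the lymphotoxin beta receptor, averaged 207 ± 5.54 CPM in HSC, 200 ± 16.2 in LSEC and 95.9 ± 3.41 in hepatocytes (SD, n = 4). Tnfrsf1a, which encodes TNF receptor 1, the main death domain receptor for TNF, averaged 374 ± 12.2, 456 ± 31.6 and 95.5 ± 28.2 CPM. Both were lower in hepatocytes than in HSC and LSEC, with adjusted p of at most 3.3e-07. Cd40, the receptor for CD40 ligand, was at 3.66 to 4.95 CPM in HSC and 2.97 to 5.65 CPM in LSEC and had no count in hepatocytes, at least 112-fold and 116-fold lower. Tnfrsf10b, the mouse death receptor for TRAIL, was low everywhere in WT libraries and highest in LSEC at 1.58, 1.98, 1.2 and 1.17 CPM (3.73 times HSC, adjusted p = 0.00112, and 2.42 times hepatocytes, 0.0115). Tnfrsf11a, which encodes RANK, had 74 counts in WT LSEC and 1 in WT HSC (ratio 68.9, 95% counting interval 12 to 2760) and 13 in WT hepatocytes (ratio to HSC 21.5, 3.23 to 914), the single HSC count being in replicate 2. LSEC was called above hepatocytes for this gene too (log2 1.66, adjusted p = 0.00907).

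Counted over the WT fit, 22 of the 41 members were tested. Called members numbered 15 between HSC and LSEC (7 higher in HSC, 8 higher in LSEC), where 56.8% of all genes were called (29.7% higher in HSC, 27.1% higher in LSEC). They numbered 17 between HSC and hepatocytes (12 and 5; 79.1% of all genes, 43.2% and 35.9% by direction) and 18 between LSEC and hepatocytes (15 and 3; 79.0%, 42.7% and 36.3% by direction). By calls against both other cell types, 6 members were highest in HSC (17.5% of all genes), 8 in LSEC (18.5%), 2 in hepatocytes (29.7%) and 6 in no single cell type (34.3%). The median log2 difference of the members tested was 2.41 for HSC over hepatocytes and 2.17 for LSEC over hepatocytes, against 0.18 for all genes in both, and -0.17 against 0.01 for HSC over LSEC. Cd27, Cd40, Ltb, Ngfr, Tnfrsf11b, Tnfrsf26, Tnfsf13b and Tnfsf9 had no count in WT hepatocytes and passed the filter through HSC or LSEC. They could therefore only come out lower in hepatocytes. Tnfrsf19, without a count in WT HSC, could only come out lower in HSC. The medians and the counts by direction include these genes, so they are descriptions and no test of the family.

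At 12 h after toxin, stellate cells held more RNA of 7 receptors and 1 ligand and less of 1 ligand. Of 17 members tested, 9 were called, 8 higher (17.0% of all genes were called higher) and 1 lower (15.1%), with 32.0% of all genes called either way. The members' median log2 change was 0.58 against 0.01 for all genes. The set tested includes Tnfrsf9, at a mean of 0.0209 CPM in WT and 3.46 CPM at 12 h. It could not have passed the filter on its WT libraries, so the median is a description and no test of the family. The counts were also 8 and 1 when HSC 12 h replicate 3 and 36 h replicate 4 were left out together, with Tnfrsf11b lost (adjusted p = 0.0635) and Ngfr gained (0.0345).

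The TWEAK receptor gene Tnfrsf12a (chromosome 17, 23675445 to 23677449) gave 2.69, 3.31, 1.61 and 3.34 CPM in WT HSC and 25.7, 16.6, 43.4 and 14.4 CPM at 12 h. Every 12 h library lay above every WT library, and the mean was 9.14 times higher (log2 3.19 ± 0.38, adjusted p = 9.72e-05). The gene shares 80 bases with Hcfc1r1, which was not called (16.4 to 14.5 CPM, adjusted p = 0.528). Tnfrsf9, which encodes 4-1BB, a co-stimulatory receptor known from activated T cells, was at 0, 0, 0 and 0.0834 CPM in WT and at 1.74, 1.46, 7.95 and 2.71 CPM at 12 h, again without overlap. Its 427 counts against 3 give a ratio of 149 (95% counting interval 50.6 to 725; adjusted p = 0.00022). The fitted log2 change of 7.04 ± 0.97 became 6.24 without HSC 12 h replicate 3 and 9.79 without HSC WT replicate 4, and the call held in both. In the same 12 h libraries 14 lymphocyte markers summed to 0.935 to 2.93 CPM against 0.335 to 1.03 CPM in WT, highest in replicate 3, which also had the most Tnfrsf9. Cd3g and Ncr1 were at 0 there, and the part of lymphocyte RNA in the Tnfrsf9 level was not tested.

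Fas rose from 2.4, 2.1, 2.04 and 1.64 CPM in WT HSC to 13.7, 7.51, 15 and 4.64 CPM at 12 h. The lowest 12 h library was still above the highest WT library, and the means differed 5-fold (log2 2.32 ± 0.33, adjusted p = 0.000237). Tnfrsf21, the DR6 gene, went from 1308, 1360, 1341 and 1305 CPM to 2681, 2256, 2570 and 2465 CPM, a tight shift without overlap (log2 0.91 ± 0.10, adjusted p = 6.57e-05, the smallest among the members). Cd40 went from 3.66, 3.97, 4.95 and 4.28 to 14.5, 7.21, 11.1 and 6.87 CPM (log2 1.24 ± 0.27, adjusted p = 0.00376), and Tnfrsf1a from 364, 384, 363 and 385 to 493, 488, 693 and 561 CPM (log2 0.58 ± 0.13, adjusted p = 0.00489). Neither overlapped between WT and 12 h. The osteoprotegerin gene Tnfrsf11b was called (728, 1084, 1290 and 1154 CPM in WT against 1803, 1216, 1740 and 1471 CPM at 12 h, log2 0.55 ± 0.19, adjusted p = 0.0412), but its groups overlapped. That call was lost without any 1 of 6 libraries (WT replicates 1, 2 and 4 and 12 h replicates 1, 3 and 4), with adjusted p of 0.0516 to 0.112.

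**Figure D2:**
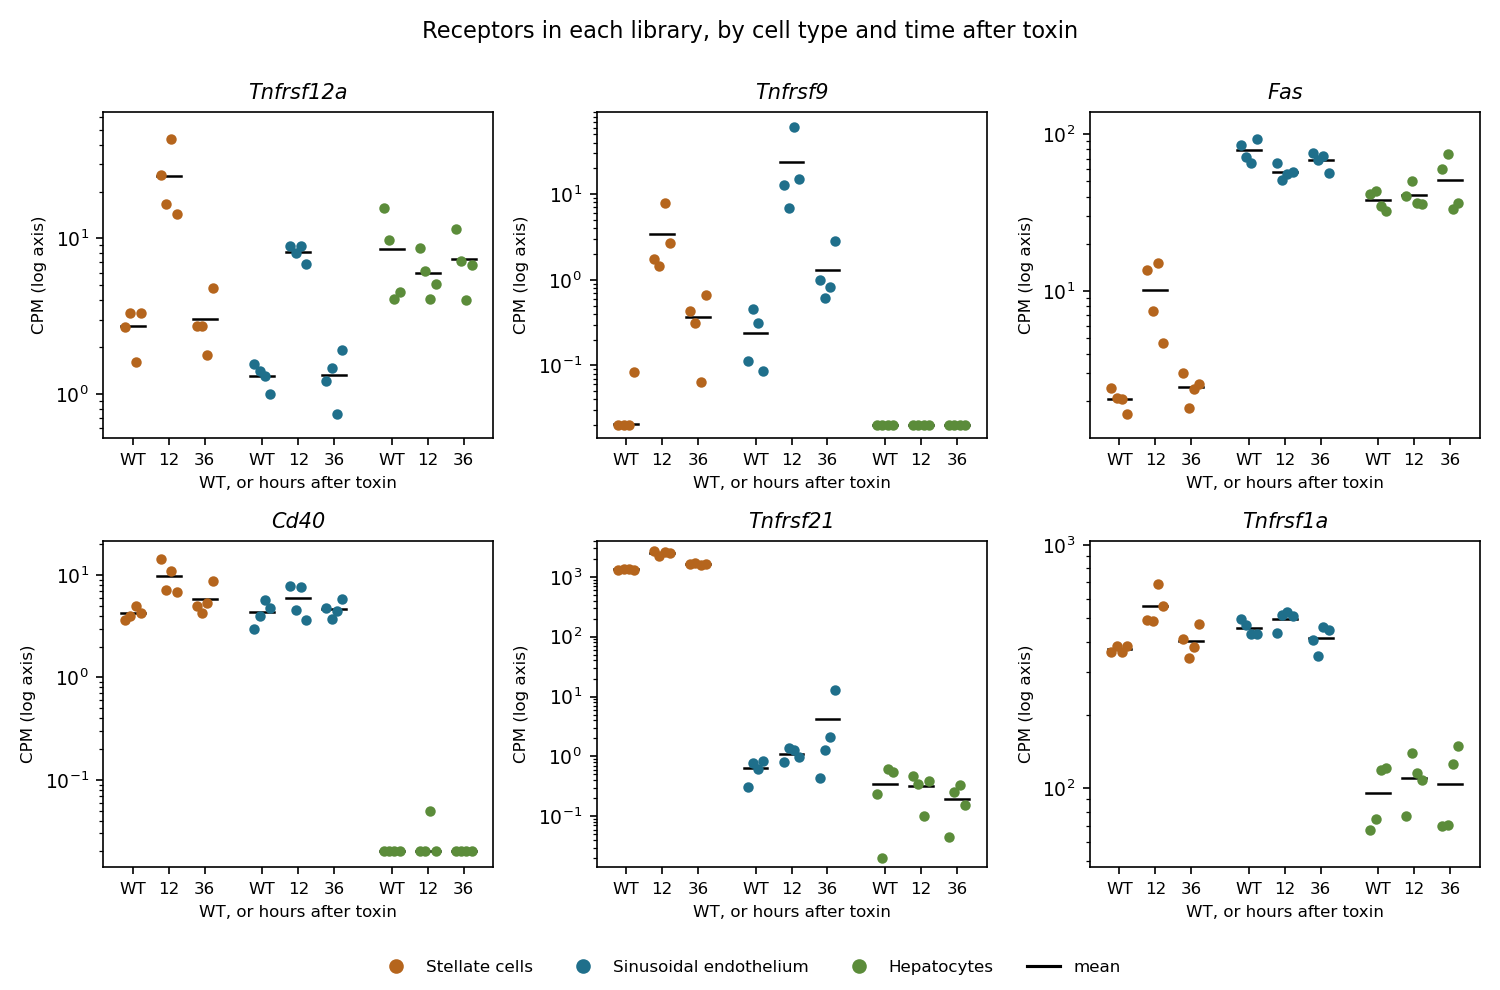
Receptor RNA in CPM on a log axis by cell type and condition, 1 panel per gene, with a point for each library and a bar at the mean of 4, and values under 0.02 CPM drawn at 0.02. In HSC the 12 h points of Tnfrsf12a, Tnfrsf9, Fas, Cd40 and Tnfrsf21 lie above all WT points, while in LSEC Fas is lower at 12 h.

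Of the stellate ligands, 1 rose and 1 fell. Tnfsf9, the 4-1BB ligand, rose from 4.88, 5.07, 3.41 and 4.51 CPM in WT to 8.8, 6.29, 12.2 and 11.2 CPM at 12 h, with no overlap (log2 1.11 ± 0.26, adjusted p = 0.00553). Tnfsf12, the TWEAK gene, fell from 20.4, 22.3, 15.4 and 18.9 CPM to 12.4, 13.6, 15.4 and 15.2 CPM (log2 -0.44 ± 0.14, adjusted p = 0.0287), in the direction opposite to its receptor Tnfrsf12a. The lowest WT library and the highest 12 h library of Tnfsf12 were both at 15.4 CPM, and its call was lost without any 1 of 5 libraries (WT replicates 1, 2 and 4 and 12 h replicates 1 and 2), with adjusted p of 0.052 to 0.0876. The whole span of Tnfsf12 lies within Tnfsfm13, the read-through gene it shares with its neighbour Tnfsf13, so reads of both can be confused. Tnfsfm13 was lower too, 1.04 ± 0.227 against 1.8 ± 0.47 CPM (SD, n = 4; adjusted p = 0.0485).

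Several stellate members were not called at 12 h. Tnfrsf1b averaged 387 CPM in WT and 436 CPM at 12 h, Ltbr 207 and 208 CPM, Tnfsf10 3.72 and 5.1 CPM, and Ngfr 177 and 223 CPM, with 12 h libraries of Ngfr spread over 332, 241, 125 and 195 CPM. Tnfsf13b gave 23.9, 22.5, 11.4 and 21 CPM at 12 h, on both sides of its WT range. Tnf stayed under the filter in HSC, at 0.38, 0.209, 0.133 and 0.0968 CPM at 12 h after 0 in all 4 WT libraries, and was not tested. Tnfsf8, the CD30 ligand gene, was also under the filter, with 3 counts in WT HSC and 41 at 12 h.

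In sinusoidal endothelium at 12 h, 8 of 22 members tested were called, 6 higher (9.74% of all genes were called higher) and 2 lower (8.50%), with 18.2% of all genes called either way. The median log2 change of the members was 0.59 against -0.02 for all genes. The set tested includes Tnfrsf9 (34 counts in WT, 3430 at 12 h) and Tnfsf15 (7 and 117). Neither could have passed the filter on its WT libraries alone, so this median too is a description and no test of the family. With LSEC 12 h replicate 3 and 36 h replicate 4 left out, 7 were called, 6 higher and 1 lower. Fas was lost (adjusted p = 0.0604), Tnfsf15 was under the filter and Tnfrsf1b was gained (0.0151). Without LSEC WT replicate 1 only 5 members were called. Calls among all genes varied too, from 1539 to 2349 over the 8 fits that each left out 1 library.

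Tnfrsf12a rose in LSEC from 1.55, 1.4, 1.3 and 0.998 CPM to 8.87, 8.07, 8.87 and 6.82 CPM, with the 2 groups far apart and a mean 6.21 times higher (log2 2.66 ± 0.26, adjusted p = 0.000188). Hcfc1r1, which overlaps it, fell (mean 17.3 CPM in WT and 12.9 CPM at 12 h, adjusted p = 0.0263). Tnfrsf9 rose from 0.113, 0.457, 0.313 and 0.0855 CPM to 12.7, 6.82, 61 and 14.9 CPM, a mean 98.7 times higher with no overlap (log2 6.63 ± 0.83, adjusted p = 0.000397). Replicate 3, at 61 CPM, carried much of that mean, and without it the log2 change was 5.57 (adjusted p = 0.000551). Lymphocyte markers summed to 6.76 to 12.9 CPM in WT LSEC and 6.19 to 15.1 CPM at 12 h, with replicate 3 at 12.1, below replicates 2 and 4, and their part in the Tnfrsf9 level was not tested. The decoy gene Tnfrsf23 rose from 20.6, 20.8, 22.6 and 23.9 CPM to 39.2, 29.2, 43.9 and 27.9 CPM, without overlap (log2 0.70 ± 0.14, adjusted p = 0.00516). Its near copy Tnfrsf22 was at 36.2, 26.5, 25.5 and 25 CPM at 12 h and was not called (log2 0.37, adjusted p = 0.0988), and Tnfrsf26 averaged 36 CPM in WT and 35.4 CPM at 12 h. Tnfrsf10b, the signalling TRAIL receptor, rose from 1.48 ± 0.381 CPM to 5.87, 2.91, 4.44 and 2.66 CPM, without overlap (log2 1.45 ± 0.33, adjusted p = 0.00832).

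Fas had the opposite sign in LSEC. It went from 85.4, 71.7, 65.6 and 92.7 CPM in WT to 65.6, 51.3, 55.8 and 57.9 CPM at 12 h (log2 -0.43 ± 0.13, adjusted p = 0.0345), and the highest 12 h library and the lowest WT library were both at 65.6 CPM. The call was lost without any 1 of 5 libraries (WT replicates 1 and 4 and 12 h replicates 2, 3 and 4), with adjusted p of 0.0661 to 0.128. Tnfrsf1b averaged 0.678 CPM in WT and 2.05 CPM at 12 h (log2 1.62 ± 0.62), without overlap, and was not called (adjusted p = 0.0853). It was called by DESeq2 (0.0313), with the replicate block (0.0361), in a fit of the 2 groups alone (0.0176) and with the 2 libraries named above left out (0.0151). Tnfrsf1a (456 and 497 CPM), Ltbr (200 and 207 CPM), Cd40 (4.36 and 5.96 CPM) and Cd27 (3.83 and 2.52 CPM) were not called either.

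**Figure D3:**
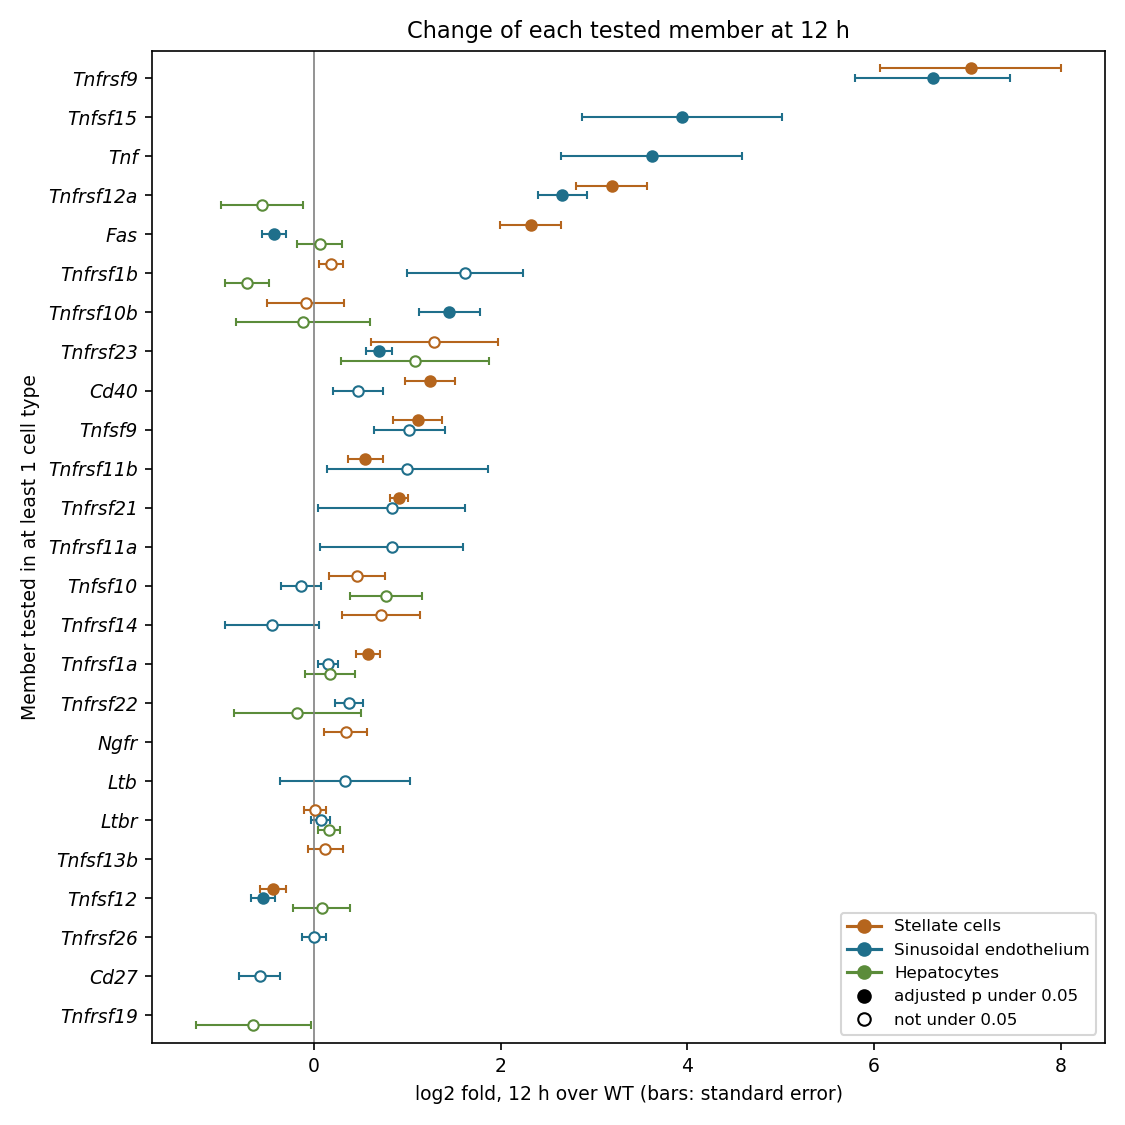
Log2 change of RNA at 12 h over WT (horizontal axis) with its standard error for each member tested, by cell type, with filled points where the adjusted p was under 0.05. Tnfrsf12a and Tnfrsf9 lie far to the right in HSC (3.19 and 7.04) and LSEC (2.66 and 6.63), Fas lies to the right in HSC (2.32) and to the left in LSEC (-0.43), and no hepatocyte point is filled.

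Among endothelial ligands, Tnf was called higher, with 1 library far above the rest. WT LSEC gave 0.848, 2.37, 0.182 and 0.0285 CPM and 12 h LSEC 28.9, 1.75, 4.68 and 5.66 CPM, so 1 library at 12 h lay below the highest WT library (log2 3.62 ± 0.97, adjusted p = 0.0201). Without 12 h replicate 1, the library at 28.9 CPM, the log2 change was 2.25 and the call was lost (adjusted p = 0.0987), and it was lost as well without WT replicate 1 or WT replicate 3, at adjusted p down to 0.0527. Without WT replicate 2 the log2 change was 4.9 (adjusted p = 0.0102). LSEC 12 h replicate 1 had the lowest sums of Kupffer cell (1.38 CPM), monocyte and neutrophil (6.92 CPM) and lymphocyte (6.19 CPM) markers of the 4 libraries at 12 h. Its sum of dendritic cell markers was the highest of them (147 CPM, next 140), mostly Zbtb46, at a group mean of 127 CPM. Monocyte and neutrophil markers as a list, 9 genes, summed to 5.66 to 11.1 CPM in WT LSEC and 6.92 to 19.8 CPM at 12 h, with Mpo at 0, and the part of any of these cells in the Tnf level was not tested.

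Tnfsf15, which encodes the endothelial cytokine TL1A, went from 0, 0.213, 0 and 0 CPM to 1.87, 0.534, 0.653 and 0.183 CPM with overlap (log2 3.94 ± 1.07, adjusted p = 0.0212). Its call was lost without WT replicate 1, 3 or 4 or 12 h replicate 1, with adjusted p of 0.0597 to 0.0717. The log2 change was 3.1 without 12 h replicate 1 and 7.89 without WT replicate 2. Tnfsf12 fell from 15.7, 14.7, 15.4 and 14.1 CPM to 8.25, 12.2, 8.96 and 10.8 CPM, here without overlap (log2 -0.55 ± 0.13, adjusted p = 0.0126), while the read-through gene Tnfsfm13 was not called (2.86 and 1.92 CPM, adjusted p = 0.149). The TRAIL gene Tnfsf10 was not called (213 ± 37.3 CPM in WT and 190 ± 49.8 CPM at 12 h), and neither was Tnfsf9 (6.44, 1.87, 4.19 and 7.4 CPM at 12 h, log2 1.02, adjusted p = 0.081).

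**Figure D4:**
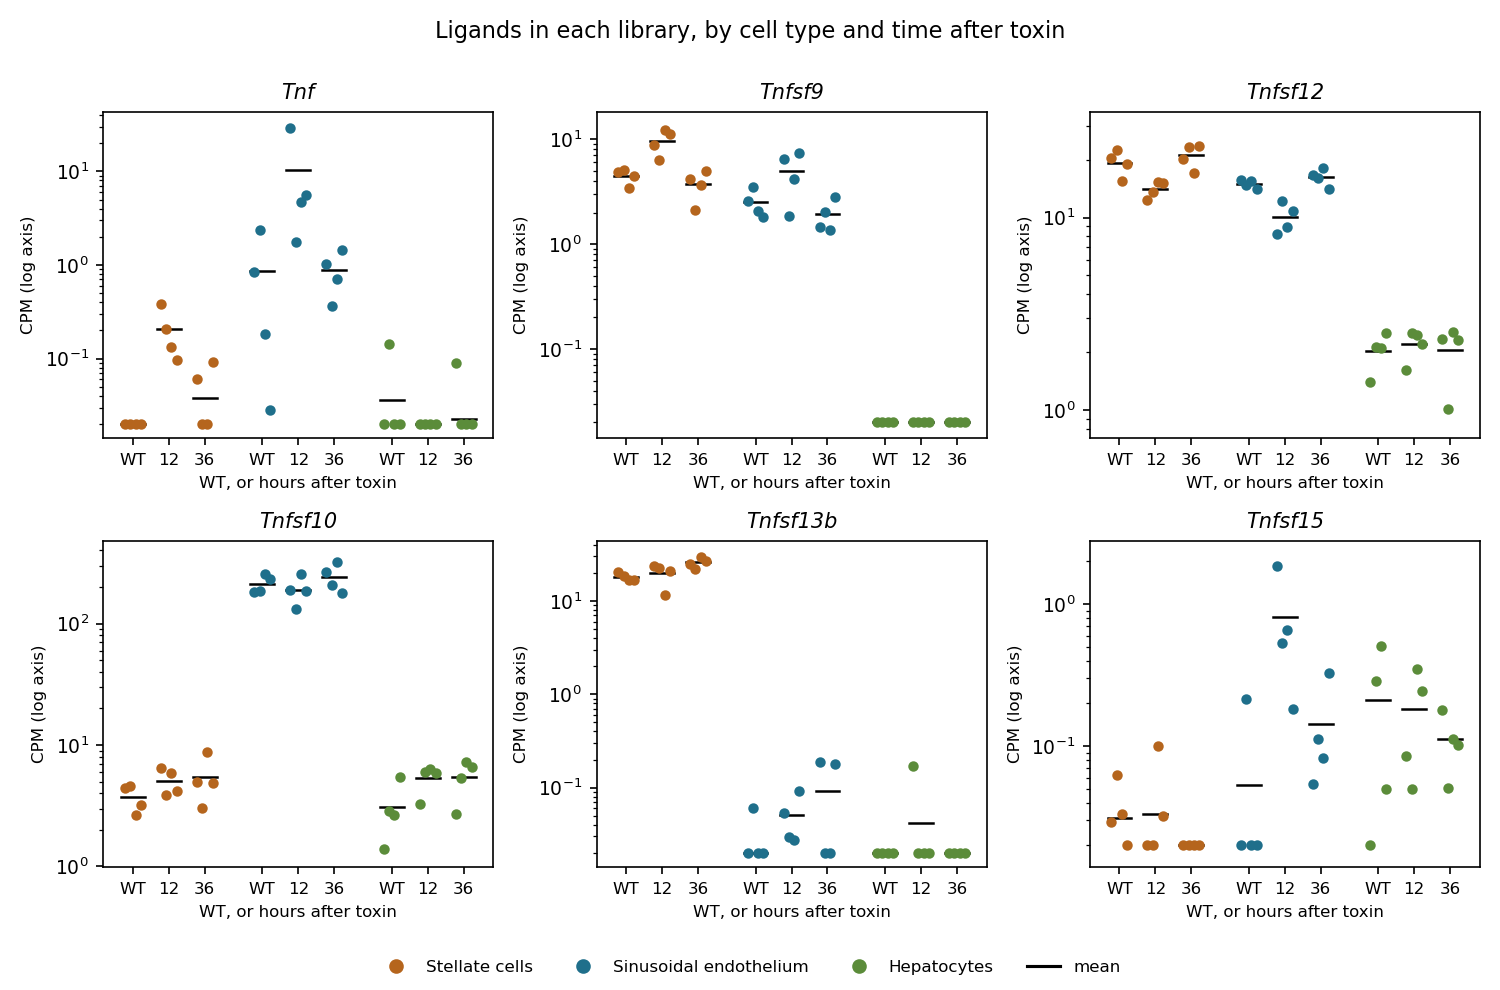
Ligand RNA in CPM on a log axis by cell type and condition, 1 panel per gene, with a point for each library and a bar at the mean of 4, and values under 0.02 CPM drawn at 0.02. Tnfsf12 is lower at 12 h in HSC and LSEC, Tnfsf9 is higher at 12 h in HSC, Tnfsf10 is at 133 CPM or more in every LSEC library, and Tnf in LSEC spreads from 1.75 to 28.9 CPM at 12 h.

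The 12 h changes of the cell types were then compared with each other in 1 fit of all 36 libraries, which tested 25 members. Between HSC and LSEC, Fas was the only member called (1.62% of all genes were called, 0.822% larger and 0.801% smaller in HSC), with a response larger in HSC by 2.75 ± 0.36 on the log2 scale (adjusted p = 1.68e-05). The changes of Tnfrsf12a and Tnfrsf9 were not called different between HSC and LSEC. With the replicate number as a block, Cd40 was called as well (0.75 on the log2 scale, adjusted p = 0.0363). Between HSC and hepatocytes, Tnfrsf12a (3.68 ± 0.55, adjusted p = 0.000134) and Fas (2.2 ± 0.36, adjusted p = 0.00039) were called, each larger in HSC, where 9.20% of all genes were called (5.03% larger and 4.17% smaller in HSC). Between LSEC and hepatocytes, Tnfrsf12a (3.15 ± 0.56, adjusted p = 0.00272) and Tnfrsf1b (2.28 ± 0.58, adjusted p = 0.024) were called, each larger in LSEC, where 3.57% of all genes were called (1.97% larger and 1.60% smaller in LSEC). The Tnfrsf1b call was lost without LSEC WT replicate 1, LSEC WT replicate 3 or LSEC 12 h replicate 4 (adjusted p of 0.0545 to 0.0599). With the block it was lost too (0.0721). Without LSEC WT replicate 2, 3 members were called in place of 2. DESeq2 called 4 members in each comparison with hepatocytes (13.2% of all genes for HSC and 7.69% for LSEC), the further 2 being Tnf and Tnfrsf9. Tnfrsf9 had no count in any hepatocyte library and Tnf 3 counts in the WT ones and none at 12 h, so neither has a measured hepatocyte response.

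At 36 h no member was called against WT by edgeR in any cell type. In HSC, edgeR called 0 of 17 members and 0.142% of all genes (0.134% higher and 0.00789% lower). An unadjusted p under 0.05 was found for 3 of these members and for 868 of all 12676 genes tested. DESeq2, which called 0.855% of all genes, called 2 members, Tnfrsf21 (adjusted p = 0.0077) and Tnfrsf9 (0.025). Tnfrsf21 stood at 1661, 1682, 1590 and 1658 CPM, every library above every WT library and below every 12 h library (log2 0.31 over WT, edgeR adjusted p = 0.421). Tnfrsf9 had 0.427, 0.312, 0.0638 and 0.673 CPM, 48 counts against 3 in WT (ratio 16.4, 95% counting interval 5.28 to 82.2). Tnfsf13b, the BAFF gene, was at 25.1, 22, 29.5 and 26.9 CPM, all above the WT range of 16.7 to 20.5 CPM, and was not called (adjusted p = 0.557). Tnfrsf12a was back at 2.74, 2.75, 1.79 and 4.8 CPM and Fas at 2.99, 1.81, 2.39 and 2.54 CPM, both over the range of WT.

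In LSEC at 36 h, edgeR called 0 of 22 members and 0% of all genes. An unadjusted p under 0.05 was found for 5 of these members and for 1288 of all 12286 genes tested. DESeq2, which called 0.800% of all genes, called 1 member, Tnfrsf11b (adjusted p = 0.0175). Tnfrsf11b was at 0.243, 1.07, 1.04 and 9.68 CPM and Tnfrsf21 at 0.433, 1.26, 2.08 and 13 CPM, both highest in replicate 4, the library with 289 CPM of stellate markers against 77.1 to 104 CPM in the other 3. These are the stellate receptors of the WT comparison, and Ngfr (0.0541, 0.112, 0.192 and 1.25 CPM) and Tnfrsf1b (0.703, 0.477, 1.21 and 4.53 CPM) were also highest there. The part of stellate RNA in these 4 values was not tested. Tnfrsf12a at 1.22, 1.46, 0.739 and 1.91 CPM overlapped WT, and Tnfrsf9 at 1, 0.618, 0.822 and 2.83 CPM lay above the WT libraries without being called.

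Compared directly with 12 h, the 36 h HSC libraries differed in 9 of 17 members, 1 higher and 8 lower (27.9% of all genes were called, 12.9% higher and 15.0% lower), and the members' median log2 difference was -0.49 against -0.01 for all genes. That set includes Tnfrsf9, which passed the filter through its 12 h libraries. Without 36 h replicate 2 the count was 6. Calls among all genes varied too, from 2622 to 3600 over the 8 fits that each left out 1 library. The comparisons of 36 h with 12 h share the 12 h libraries with those above, so they do not add independent support. The values were -3.05 ± 0.38 for Tnfrsf12a (adjusted p = 0.000147), -2.07 ± 0.32 for Fas (0.000543), -0.60 for Tnfrsf21 (0.000944), -1.37 ± 0.26 for Tnfsf9 (0.00198) and 0.57 ± 0.14 for Tnfsf12 (0.0093). Tnfrsf9 differed by -3.21 ± 0.69 (0.0041), or -2.4 without 12 h replicate 3. Smaller calls were lost in single omissions: Cd40 (-0.76 ± 0.27, adjusted p = 0.0473; 0.102 to 0.148 without 12 h replicate 1 or 3 or 36 h replicate 1, 2 or 3, and 0.058 with the replicate block), Tnfrsf11b (-0.61 ± 0.19, 0.0301; 0.063 to 0.0903 without the same 5) and Tnfrsf1a (-0.48 ± 0.13, 0.0164; 0.0576 without 36 h replicate 2).

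The 36 h LSEC libraries differed from those at 12 h in 8 of 22 members, 1 higher and 7 lower (21.3% of all genes were called, 10.6% higher and 10.8% lower), with a median of -0.29 against 0.02. That set includes Tnfsf15, which with 20 counts at 36 h could not have passed the filter on those libraries alone. Tnfrsf12a (log2 -2.65, adjusted p = 0.000112), Tnfrsf9 (-4.21, 0.00129), Tnfrsf23 (-0.67, 0.00537), Tnfrsf10b (-1.35, 0.0103) and Tnfrsf22 (-0.86 ± 0.15, 0.00169) were lower, and Tnfsf12 was higher (0.65, 0.0042). Tnfrsf22, at 16.9, 18.6, 13.8 and 14.3 CPM, lay below every 12 h library and overlapped the lower end of the WT range, 18.4 to 25.1 CPM. The Tnfrsf9 value was -3.16 without 12 h replicate 3 and -4.92 without 36 h replicate 4. Tnf (-3.55, 0.0189) lost its call without 12 h replicate 1, where it was -2.2, and without 36 h replicate 2 or 3 (adjusted p of 0.0519 to 0.101). Tnfsf9 (-1.41, 0.0204) lost it without 12 h replicate 1 or 4 or 36 h replicate 1 or 3 (0.0551 to 0.0636).

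In hepatocytes no member was called at any time. Of 11 members tested, edgeR called 0 at 12 h, 0 at 36 h and 0 between the times (0% of all genes in each). An unadjusted p under 0.05 was reached by 1 member in each, and by 453, 564 and 725 of all 11326 genes tested. DESeq2 called 0, 1 and 0 members (0.395%, 0.476% and 0.189% of all genes). The 1 gene was Tnfrsf1b, the TNF receptor 2 gene. It was at 56.8, 41.5, 62.1 and 49.1 CPM in WT, 27.3, 31.1, 39.8 and 32.3 CPM at 12 h and 16.2, 12.6, 28.5 and 30.1 CPM at 36 h. All 8 libraries after toxin lay below all 4 WT libraries, while the 2 later groups overlapped each other. The log2 difference from WT was -0.72 ± 0.24 at 12 h (edgeR adjusted p = 0.912) and -1.28 ± 0.25 at 36 h (adjusted p = 0.258, unadjusted p = 0.000177, edgeR). At 36 h DESeq2 gave an adjusted p of 0.00205, and edgeR with a term for Malat1 gave 0.0154 (log2 -1.35). With the replicate number as a block, edgeR gave 0.0472 (log2 -1.34). Of 14 alternatives, these 3 called the gene. The 9 Kupffer cell markers summed to 16.6, 28.8, 1.76 and 3.75 CPM in the WT libraries and to at most 0.55 CPM at 12 h and 1.89 CPM at 36 h. The WT library with the most Tnfrsf1b, replicate 3, had the lowest of these sums, and the part of Kupffer cell RNA was not tested.

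The hepatocyte libraries split on Malat1, a long RNA kept in the nucleus, with 5 libraries at 334 to 678 CPM (WT replicates 1 and 2, 12 h replicate 1, 36 h replicates 1 and 2) and 7 at 34.9 to 66.7 CPM. Within the 5, Tnfrsf1b was at 41.5 to 56.8 CPM in WT, 27.3 at 12 h and 12.6 to 16.2 at 36 h. Within the 7 it was at 49.1 to 62.1, 31.1 to 39.8 and 28.5 to 30.1 CPM, so WT was highest on each side. Tnfrsf12a differed along the split without overlap, at 7.11 to 15.7 CPM in the 5 and 3.99 to 6.76 CPM in the 7. Tnfrsf1a was at 67.6 to 76.7 CPM in the 5 and 108 to 149 CPM in the 7, and Tnfrsf22 at 0.203 to 0.656 and 0.834 to 1.9 CPM. The TMM factors differed as well, at 0.706 to 0.826 in the 5 and 0.638 to 0.683 in the 7. How many of all genes separate along the split was not counted, so the separation cannot be called particular to these receptors. Fas at 36 h was at 60.1 to 75 CPM in libraries of the 5 and 33.2 to 36.3 CPM in those of the 7. In WT it was at 41.8 to 43.4 and 32.6 to 34.7 CPM. Fas averaged 38.1 CPM in WT, 40.9 at 12 h and 51.2 at 36 h, Ltbr 95.9, 110 and 100 CPM, and Tnfsf10 3.09, 5.37 and 5.49 CPM, none of them called.

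**Figure D5:**
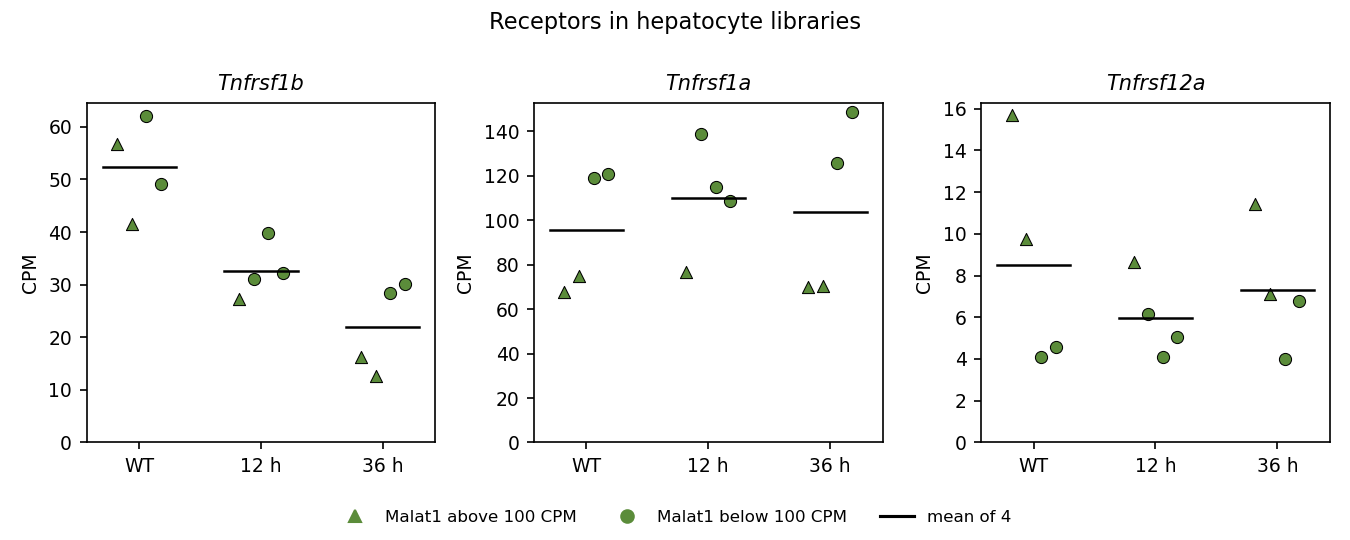
Tnfrsf1b, Tnfrsf1a and Tnfrsf12a in CPM (vertical axis) in the 12 hepatocyte libraries by condition, with triangles for libraries above 100 CPM of Malat1, circles for the others and a bar at the mean of 4. Tnfrsf1b steps down from WT (41.5 to 62.1 CPM) to 36 h (12.6 to 30.1 CPM) in both kinds of library, while Tnfrsf1a is lower and Tnfrsf12a higher in the triangles in every condition.

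RNA of genes whose proteins act with or below these receptors was read by lists of known pathway genes. In HSC at 12 h, 6 of 18 TRAF adaptors and receptor-proximal genes were called higher and 1 lower, with a median log2 change of 0.29 against 0.01 for all genes. All list counts at 12 h stand beside 17.0% of all genes called higher and 15.1% lower in HSC, and 9.74% and 8.50% in LSEC. The genes called higher included Birc2 (49.6 to 134 CPM, log2 1.43 ± 0.19, adjusted p = 0.000189) and Birc3 (59.5 to 138 CPM, adjusted p = 0.000191), the ubiquitin ligases that sit with TRAF2. They also included Traf1 (0.00695 to 0.409 CPM, 0.000528) and Traf3 (24.8 to 37.8 CPM, 0.00714). The WT mean of Traf1 is below the 0.0227 CPM that 3 counts over the group would give, so its fold is uncertain. Ikbkg, the regulatory subunit of the IKK complex, fell (44.9 to 35.5 CPM). In LSEC 0 of 18 were called higher and 1 lower, again Ikbkg (48.4 to 37.5 CPM).

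Of 12 genes that edit ubiquitin chains at TNF receptor complexes, 5 were called higher in HSC and none lower, and 2 higher and 1 lower in LSEC. Tnfaip3, which encodes the feedback inhibitor A20, rose in both, from 8.49 to 40 CPM in HSC (adjusted p = 0.00017) and from 22.3 to 88.7 CPM in LSEC (0.00242). Its partner Tnip1 went from 36.8 to 127 CPM in HSC and from 57.7 to 110 CPM in LSEC, both called. Of the alternative NF-kB genes, Nfkb2 rose in HSC (35.7 to 167 CPM, adjusted p = 2.59e-05) and LSEC (65.6 to 119 CPM), and Relb in HSC (44.3 to 133 CPM, 0.00022), which makes 2 of 4 tested in HSC and 1 of 5 in LSEC.

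Of 13 genes of the machinery that acts below death receptors, 5 were called higher in HSC and 4 in LSEC, none lower. Mlkl, the executor of necroptosis, rose from 27.2 to 67.7 CPM in HSC (adjusted p = 0.000218) and from 29.2 to 52.6 CPM in LSEC, and its activating kinase Ripk3 from 0.851 to 6.17 CPM in HSC and 14.4 to 26.4 CPM in LSEC. Bax, which opens the outer mitochondrial membrane, rose from 30.9 to 68.9 CPM in HSC and from 63.7 to 133 CPM in LSEC (0.000233). Among 4 sheddases and regulators, which cut TNF and its receptors from the membrane, 3 were called higher and 1 lower in HSC and 2 higher in LSEC. Rhbdf2, which encodes a partner that matures the protease ADAM17, rose from 34 to 130 CPM in HSC (2.59e-05) and from 35.5 to 66.5 CPM in LSEC, and Adam17 from 37.1 to 56.2 CPM in HSC, where Adam10 fell (120 to 83.7 CPM).

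Family genes with other symbols gave 2 calls in HSC and 1 in LSEC at 12 h. Eda2r, a receptor for ectodysplasin, rose from 0.912 to 3.14 CPM in HSC and from 6.36 to 17 CPM in LSEC (adjusted p = 0.00412), and its ligand gene Eda fell from 14.9 to 4.65 CPM in HSC. At 36 h against WT, Traf1 in HSC was the only gene of these 6 lists called in any cell type (adjusted p = 0.0257), again against a WT mean below the 3-count floor. None was called in hepatocytes at either time.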

How the data were processed

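RNA was sequenced in bulk from the 36 libraries, 4 in each of 9 groups, and the authors deposited raw counts for each gene symbol, 1 file per library. Per the submitters' processing notes, reads were checked with FastQC 0.11.4, trimmed with Trimmomatic 0.35, mapped to mm10 with TopHat2 2.1.0 and handled with SAMtools 0.1.18. What counted the reads, with which annotation and whether by strand, is not given in the sources used here. Reads of overlapping genes (Tnfsf12 with Tnfsfm13, Tnfrsf12a with Hcfc1r1, Tnfsf9 with Gm11110, Cd27 with E130112N10Rik) may therefore be mixed. Lines for reads in no gene (4.9 to 9.02% of the reads) or ambiguous between genes (0.887 to 1.51%) were left out. Totals were 25.4 to 31.7 per library, in units of 1000000 counts, and none of 54 pairs of libraries within a group was identical. Microarray samples that the series text mentions were not analysed here.

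Counts were tested with the quasi-likelihood functions of edgeR 4.0.16 under R 4.3.3 (TMM scaling, filterByExpr with minimum count 10 and minimum total 15, Benjamini-Hochberg adjustment over all genes tested), and an adjusted p under 0.05 was a call. Each cell type had a fit of its 3 conditions, WT cell types were compared in a fit of 12 libraries, and 12 h responses in a fit of all 36. Folds against a group without counts are bounds against 3 counts over the group, and ratios with 1 to 3 counts have exact 95% intervals. These bounds and intervals cover counting error only. The alternatives were DESeq2 1.42.0, RLE scaling, no filter, a replicate block, fits of only the groups compared, a Malat1 term in hepatocytes and leaving out libraries.

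The family members come from the naming rule, and the pathway and marker lists, the windows shown and the rule for named genes (members called, or averaging 1 CPM or more in a group, and up to 4 called genes per pathway list) were chosen with earlier results of these data known. All 41 members were matched by symbol to RefSeq on GRCm38.p6, the source of coordinates and promoter windows.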

Additional observations from a re-analysis of the deposited data

Results flagged for a closer look

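In 7 of 113 sets of 4 libraries, 1 library lay far from the other 3 by Dixon's test at its 95% critical value, and chance alone gives about 1 in 20. In LSEC at 12 h these were Tnf in replicate 1 (28.9 CPM, next 5.66), Tnfrsf22 in replicate 1 (36.2 CPM, next 26.5) and Tnfrsf9 in replicate 3 (61 CPM, next 14.9). In LSEC at 36 h they were Tnfrsf11b (9.68 CPM, next 1.07) and Tnfrsf21 (13 CPM, next 2.08), both in replicate 4, which also had the highest stellate marker sum. In hepatocytes Tnfsf10 was low in 12 h replicate 1 (3.3 CPM, next 5.84) and Tnfsf12 in 36 h replicate 2 (1.02 CPM, next 2.3).

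The 12 h response differed between cell types, by a test of the difference itself, for Fas between HSC and LSEC (2.75 on the log2 scale) and between HSC and hepatocytes (2.2). It also differed for Tnfrsf12a between HSC and hepatocytes (3.68) and between LSEC and hepatocytes (3.15), and for Tnfrsf1b between LSEC and hepatocytes (2.28). The Tnfrsf1b call was kept in 16 of 20 alternatives. Its 12 h change was called by edgeR neither in LSEC (adjusted p = 0.0853) nor in hepatocytes (0.912).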

How the results depend on the processing

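Of 89 member results that were called, 75 kept their call in every alternative that gave a value and 14 lost it in at least 1, and 23 that were not called were called in some alternative. The counts of members called when 1 library at a time was left out follow, with the number of all genes called in brackets. At 12 h against WT they were 7 to 9 in HSC (3146 to 4064) and 5 to 8 in LSEC (1539 to 2349). At 36 h against 12 h they were 6 to 9 (2622 to 3600) and 6 to 10 (1784 to 2623), and at 36 h against WT 0 in both (2 to 33 and 0 to 1). Hepatocytes gave 0 throughout, also over all genes. The WT comparisons gave 13 to 16 for HSC and LSEC (7098 to 7304), 17 to 18 for HSC and hepatocytes (10376 to 10614) and 18 for LSEC and hepatocytes (10370 to 10517). The response comparisons gave 1, 2 and 1 to 3 in the same order (155 to 249, 688 to 1483 and 243 to 581). DESeq2 called 2 members in HSC, 1 in LSEC and 1 in hepatocytes at 36 h against WT, and 4 in each response comparison with hepatocytes, adding Tnf and Tnfrsf9, which have almost no hepatocyte counts. Libraries of the same number deviated together over 0.1 in 11 of 12 pairs of HSC and LSEC (correlations from 0.035, WT number 4, to 0.363). Within hepatocytes 10 of 12 pairs did (-0.102 to 0.514), within HSC 6 (-0.065 to 0.276) and within LSEC 4 (-0.216 to 0.304). Correlations ran from -0.106 to 0.029 between HSC and hepatocytes and from -0.089 to 0.086 between LSEC and hepatocytes. Hepatocyte libraries above 100 CPM of Malat1 all carried number 1 or 2, and the others number 3 or 4 except 12 h number 2. Since not every pair passed 0.1, the block was not used for the main values. With the number as a replicate block, 1 hepatocyte member was called at 36 h (Tnfrsf1b, adjusted p = 0.0472), 2 in the response comparison of HSC and LSEC (Cd40 added, 0.0363) and 1 in that of LSEC and hepatocytes. The block also added Tnfrsf1b in LSEC at 12 h (0.0361) and lost Cd40 in HSC at 36 h against 12 h (0.058) and Tnfrsf26 between WT HSC and hepatocytes (0.0532). The Malat1 term also gave 1 at 36 h in hepatocytes. Tnfrsf1b in LSEC at 36 h against 12 h changed sign, from -0.28 to 0.03 on the log2 scale, without LSEC 36 h replicate 2, and was -1.4 without LSEC 36 h replicate 4. The cause of these shifts was not tested. Members under 1 CPM rest on few counts, so a change in them was often not detectable at this depth.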
